A study of Drosophila melanogaster with 18 samples.

Results

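The 82 genes described here had higher levels in photoreceptor nuclei after 8 h of blue light than in untreated flies of the same age, while their levels after 3 h of light and at day 30 of adult life lay near the untreated level. They were selected from 17811 counted features. Levels were expressed as CPM (a count divided by the counted total of its sample and scaled to the same total in all), and L was log2 of the mean CPM of a group plus 1. Of 9426 features with over 10 counts in all 18 samples, 82 (0.87%) had an L at least 0.8 higher at 8 h than at D5, an L at 3 h and at D30 within 0.5 of that at D5, and all 3 samples at 8 h above all 3 at D5.

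The study profiled nuclear RNA of outer photoreceptors R1–R6 in 6 groups of 3 samples each, each a pool of many male flies. The groups named 3h, 5h and 8h were flies of day 5 exposed to blue light for 3, 5 or 8 h and frozen straight after it, D15 and D30 were flies aged to day 15 or 30, and D5 was the untreated group of day 5. All 6 groups carried the same genotype, Rh1-GFP-KASH in a cn bw background that also held a null allele of white. The transgene tags the nuclear envelope under regulatory elements of ninaE (the R1–R6 rhodopsin gene Rh1), and cn bw removes the eye pigment. The insertion lies in the region 5′ of Catalase, a gene of peroxide breakdown, and every group shared this inserted line. The paper reports raised Catalase expression in this line. It proposes that these flies are partly shielded from the oxidative stress of blue light or ageing.

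R1–R6 photoreceptors convert light into a calcium influx through TRP channels in the rhabdomere, a stack of microvilli held by an actin skeleton. They release histamine onto the lamina and recover it as carcinine from neighbouring glia. Intense blue light keeps rhodopsin active, and flies without screening pigment receive more of it.

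Counted totals were 11.4 to 20.5 M per sample (median 16.7 M), and counting error weighs most on the genes with the lowest levels. The light samples shared a lane, D5 and D15 shared another, and D30 was on a separate flow cell. Lane therefore cannot be told apart from light where 3h, 5h or 8h is compared with another group. In D30 against D5, which the selection used, flow cell cannot be told apart from age. Comparisons among 3h, 5h and 8h and between D15 and D5 lay within a lane. At D30, 24.5% to 26.3% of read pairs were assigned to genes, against 32.8% to 44.9% in all other samples. The sample 5h replicate 1 stood apart: correlations between replicates went down to 0.87 at 5 h, against 0.961 or more in each of the other groups. R1–R6 markers such as ninaE (4602 to 6334 CPM at 8 h, 4959 to 6660 CPM at D5) were abundant in every group. Defining markers of other cells were above 0 in every group, such as repo of glia (15.2 to 43.9 CPM over all samples) and Mhc of muscle (298 to 2020 CPM).

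In the values that chose them, L was 0.80 to 1.69 higher at 8 h than at D5 (median 0.97), and it differed at 3 h by -0.48 to 0.49 (median -0.14) and at D30 by -0.42 to 0.50 (median 0.19). Mean levels of the 82 genes were 5.05 to 20831 CPM at 8 h (median 33.3) and 1.94 to 8063 CPM at D5 (median 16.4), against medians of 13.3 and 15.5 CPM over all kept features. These values are a description, since the selection rests on them. Of 270 features with the required difference at 8 h (2.86% of those kept), 58 were left out for their level at 3 h alone, 59 for D30 alone and 71 for both. Nearest to the limits were CG32579 (0.80) and CG43367 (0.82) inside and tei (0.80, just under the limit) and Rip11 (0.79) outside at 8 h. At 3 h they were CG15892 (0.49) and Svil (-0.48) inside and CG31323 (-0.50) and SLC5A11 (-0.51) outside. PIG-V (0.50) and qtc (0.49) lay inside and asRNA:CR45145 (0.50) and mst (0.50) outside at D30.

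The membership depended on the scaling of the CPM. With CPM scaled by TMM factors (trimmed mean of M values, a correction for composition), 141 genes met the rule, among them 70 of the 82. In 53 of the 82 genes the lowest 8 h sample was above every other sample of the study (3.72% of kept features), while in the rest at least 1 sample of another group reached into the 8 h range. All 8 h samples were above all 3 h samples in 81 genes (34.0% of all kept features) and above all D15 samples in 81 (25.5%), and as the 8 h values chose the genes, these counts are descriptive. The L at D15 was within 0.5 of that at D5 in 79 genes, and all D15 samples were above all D5 samples in 10 (7.87% of kept features). They were below all D5 samples in 8 (9.76% of the 82). The share of kept features was computed neither for these 8 nor for the 79, so neither count can be set against a background. The median difference of L between D15 and D5 was -0.02 for the 82 genes and -0.12 over all kept features.

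**Figure D1:**
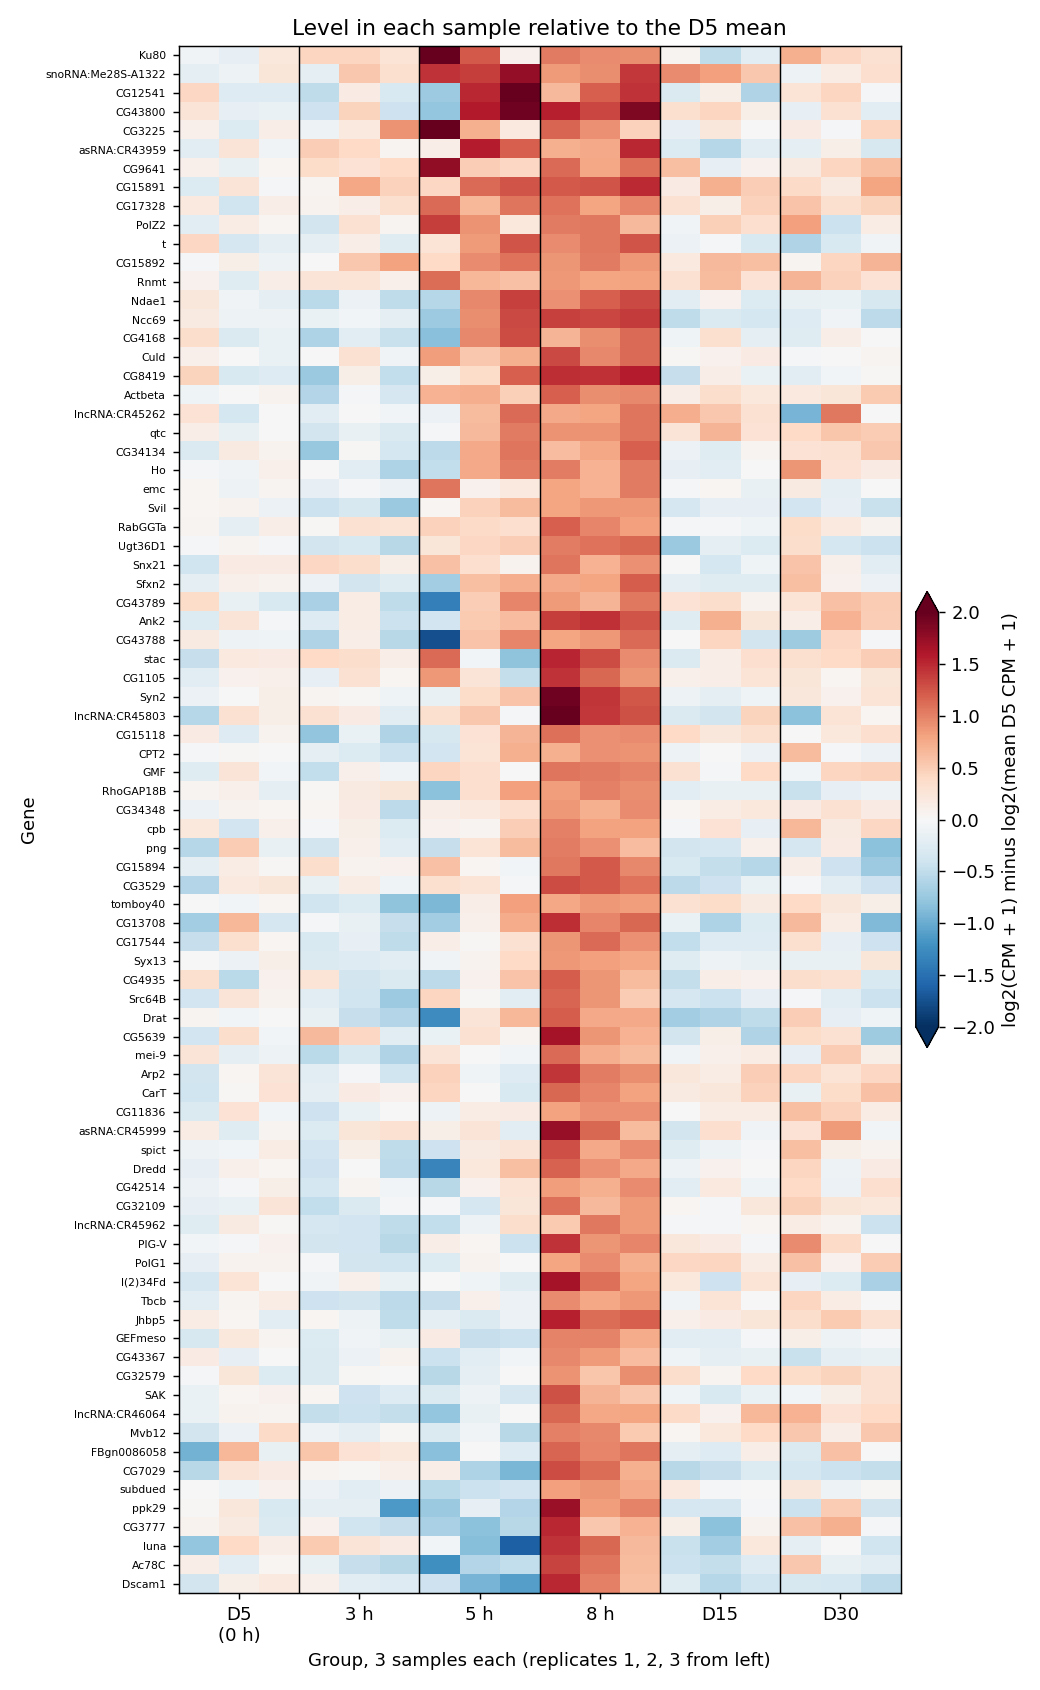
Level of each of the 82 genes in each of 18 samples, as log2(CPM + 1) minus log2(mean D5 CPM + 1), with genes ordered by their mean at 5 h and colours capped at -2 and 2. The 8 h columns are red throughout, as the selection required, and the 5 h columns vary between genes and between replicate 1 and the others.

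The samples at 5 h and D15 were used by the selection only in the filter of over 10 counts in all 18 samples. So 5 h was compared with D15 in edgeR's quasi-likelihood test with Benjamini-Hochberg adjustment over 9427 features. Among the 82 genes, 23 were higher at 5 h at an adjusted p under 0.05 (28.0%), against 12.8% of all tested features, and 5 were lower (6.10%), against 11.8%. The other 54 did not pass. At an unadjusted p under 0.05 the counts were 33 higher, against 19.5% of all tested features, and 10 lower, against 18.1%. The median fitted log2 fold change was 0.23 for the 82 genes and 0.01 for all tested features. The groups 5 h and D15 differed both in light and in age (day 5 against day 15). They were also on separate lanes, and each lane held 1 of these groups. The same lanes separated 8 h from D5 in the selection. The test is therefore not independent of any lane difference that the selection picked up. The shares of light, age and lane in these differences therefore cannot be told apart.

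Among the 23 genes called higher, 11 had all 3 samples at 5 h above all 3 at D15, and in the other 12 replicates 2 and 3 lay above D15 while replicate 1 did not. Over all 82 genes, the 5 h samples lay wholly above D15 in 16 (12.8% of kept features did) and wholly below in 7 (12.8%). Without 5h replicate 1 the test called 22 higher and 3 lower (902 and 816 of all 9427 tested features), and 22 of the 28 calls were shared. Without 5h replicate 3 it called 13 and 2 (898 and 695 of all tested features). Without D15 replicate 1 it called 15 and 4 (767 and 724), and without D15 replicate 3 14 and 2 (721 and 733). Of the 28 calls, 12 passed in each of the 6 fits that left out 1 sample. Without the RUVs factors, which absorb differences between replicates, 9 were higher and 2 lower (566 and 264 of all tested features). With upper-quartile scaling in place of TMM, 14 were higher and 9 lower (842 and 1592).

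Within the lane of the light samples, 15 of the 82 genes had all 5 h samples above all 3 h samples (15.1% of kept features), and 57 had all 8 h samples above all 5 h samples (13.6%). As the 3 h and 8 h values chose the genes, these counts are descriptive. The mean at 5 h was above that at 8 h in 7 genes, and relative to D5 the L at 5 h was 0.5 or more higher in 24, 0.5 or more lower in 4 and in between in 54. For these counts the share of kept features was not computed. The median difference of L between 5 h and D5 was 0.23 for the 82 genes and -0.11 over all kept features. All 5 h samples were above all D5 samples in 14 of the 82 genes (7.34% of kept features) and below them in 4 (19.4%), again as a description, since the rule used D5.

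**Figure D2:**
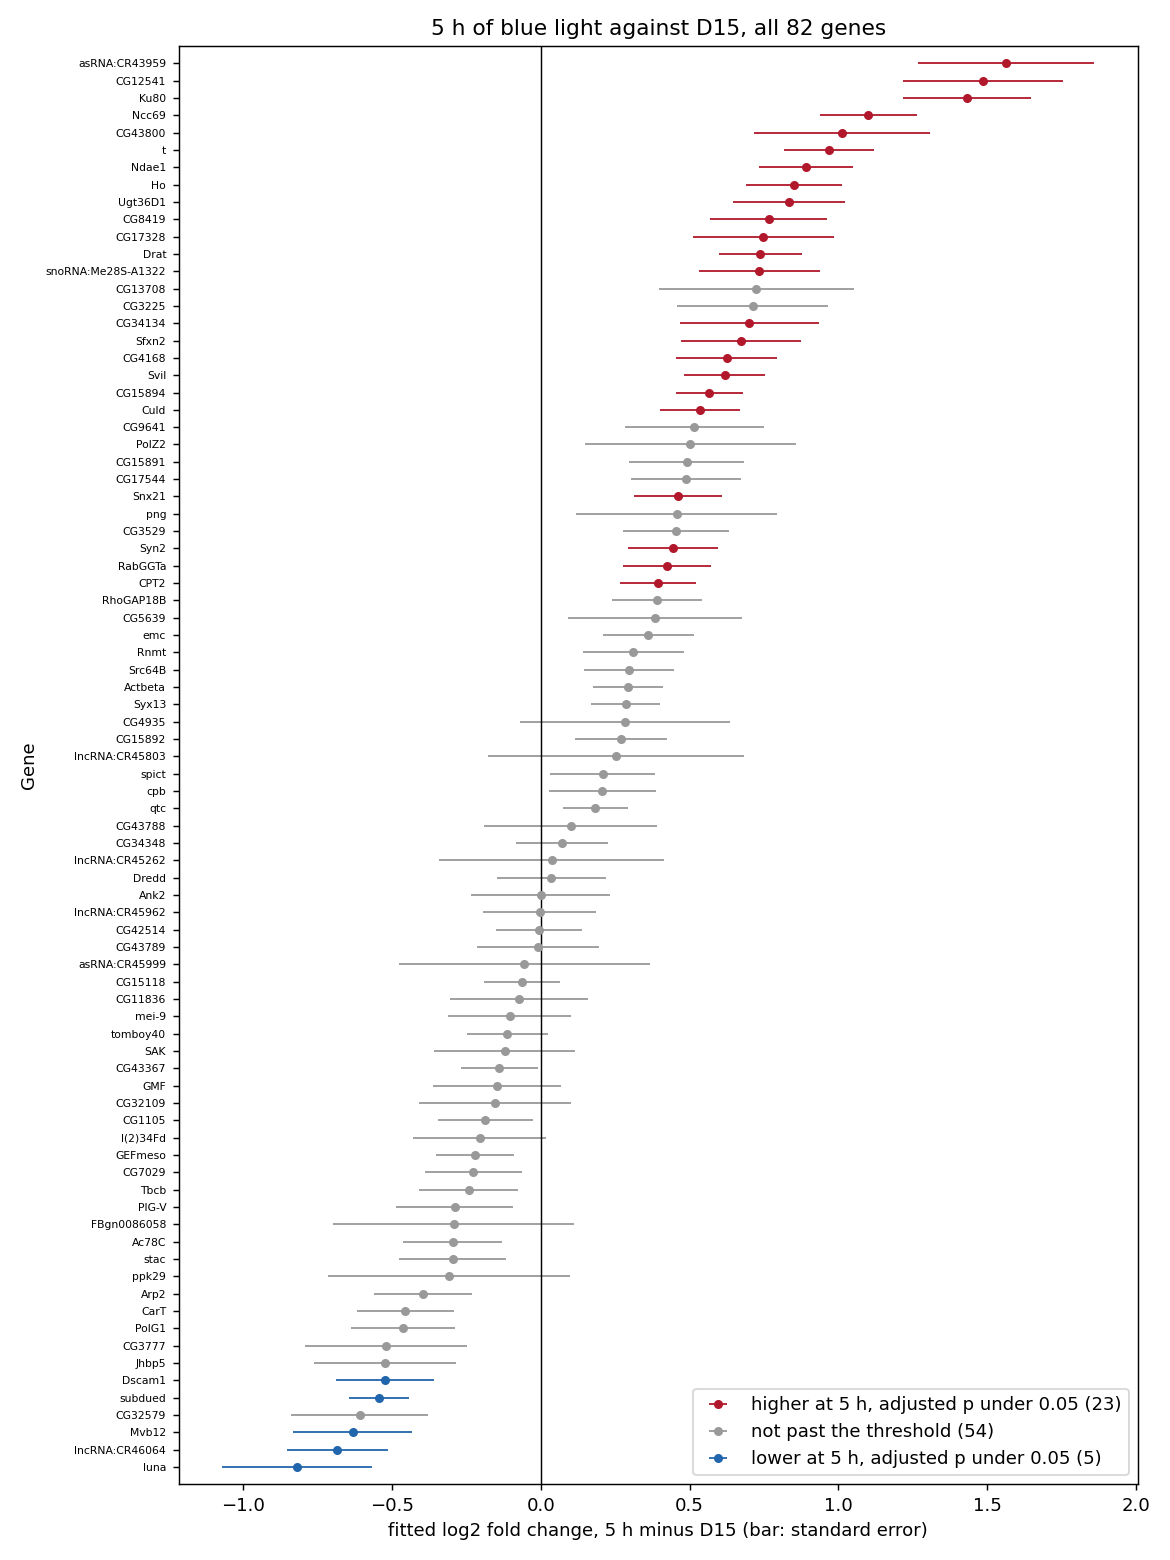
Fitted log2 fold change of 5 h over D15 for each of the 82 genes, with its standard error. Of these, 23 lie right of 0 past the threshold, 5 lie left of 0 past it, and asRNA:CR43959 and luna hold the ends of the range (1.56 and -0.82). In a fit without RUVs factors, not drawn, luna had -0.43 and Ku80 had the highest value, 2.32.

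Among genes of ion transport, Ncc69 (FBgn0036279, chromosome 3L, 12368646 to 12391444, minus strand in dm6) encodes a sodium-potassium-chloride cotransporter and had the smallest adjusted p of the 82 genes at 5 h over D15. Its levels were 182, 574 and 754 CPM at 5 h, against 210.2, 245 and 236 CPM at D15. Replicates 2 and 3 at 5 h were above, and replicate 1 below, every D15 sample. The fitted log2 fold change of 5 h over D15, the scale of every fitted change given here, was 1.10 (SE 0.16), with an edgeR adjusted p of 0.000722 (7.16e-08 to 0.0434 over 17 alternatives), and 1.43 without 5h replicate 1. At 8 h it had 777, 755 and 788 CPM, against 340.2, 280.5 and 279 CPM at D5, and the 8 h samples differed among themselves far less than those at 5 h.

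Ndae1, a sodium-driven anion exchanger that moves bicarbonate, had 185, 537 and 707 CPM at 5 h and 233, 293 and 227 CPM at D15. Again replicate 1 lay below the D15 samples and replicates 2 and 3 above them. It was higher at 5 h by a log2 fold change of 0.89 (SE 0.16), edgeR adjusted p = 0.00198 (1.23e-05 to 0.186 over 17 alternatives). Subdued, a chloride channel of the anoctamin family opened by calcium, went the other way: 26.4, 28.7 and 29.7 CPM at 5 h, against 44.9, 37.8 and 39.3 CPM at D15, with no overlap. Its fitted change was -0.54 (SE 0.10), adjusted p = 0.00254 in edgeR (4.56e-05 to 0.0407 over 17 alternatives). The levels of subdued at 8 h were 69.8, 72.8 and 66.7 CPM, all above D5 (38.8, 36.5 and 41.6 CPM). A pickpocket-family sodium channel subunit, ppk29, had 19.05, 9.79 and 10.98 CPM at 8 h and 5.14, 6.05 and 3.91 CPM at D5, and 2.61, 4.36 and 3.0 CPM at 5 h, inside the range of the other groups.

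Genes that serve the photoreceptor's own transmitter and receptor were among the members. The gene t (tan) encodes the hydrolase that frees histamine from carcinine. It had 329.7, 495 and 649.6 CPM at 5 h, against 253, 267 and 221 CPM at D15, without overlap. The fitted log2 fold change of t was 0.97 (SE 0.15), edgeR adjusted p = 0.000947 (5.33e-07 to 0.0968 over 17 alternatives). At 8 h t had 525, 565 and 655 CPM, against 363, 216 and 238 CPM at D5, so 5 h and 8 h overlapped.

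CarT, the transporter that brings carcinine back into photoreceptors, had 482, 353 and 288 CPM at 5 h and 402, 415 and 491 CPM at D15, which overlap, and its fitted change of -0.46 (SE 0.16) had an edgeR adjusted p of 0.0545 (0.0245 to 0.64 over 17 alternatives). By 8 h CarT had 793, 700.0 and 622 CPM, against 269, 363 and 435 CPM at D5. Culd, a CUB-domain protein needed for endocytic turnover of Rh1 and the TRPL channel, had 933, 762 and 853 CPM at 5 h and 533, 553 and 585 CPM at D15. All 3 of its 5 h samples were above the D15 samples, and it was higher by a log2 fold change of 0.54 (SE 0.14), edgeR adjusted p = 0.0116 (0.0036 to 0.119 over 17 alternatives). That call was lost without 5h replicate 3 (0.45, adjusted p = 0.0717). Culd at 8 h had 1308, 1014 and 1147 CPM, above D5 at 562, 526 and 477 CPM, so every 5 h sample lay between the D5 and the 8 h samples.

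**Figure D3:**
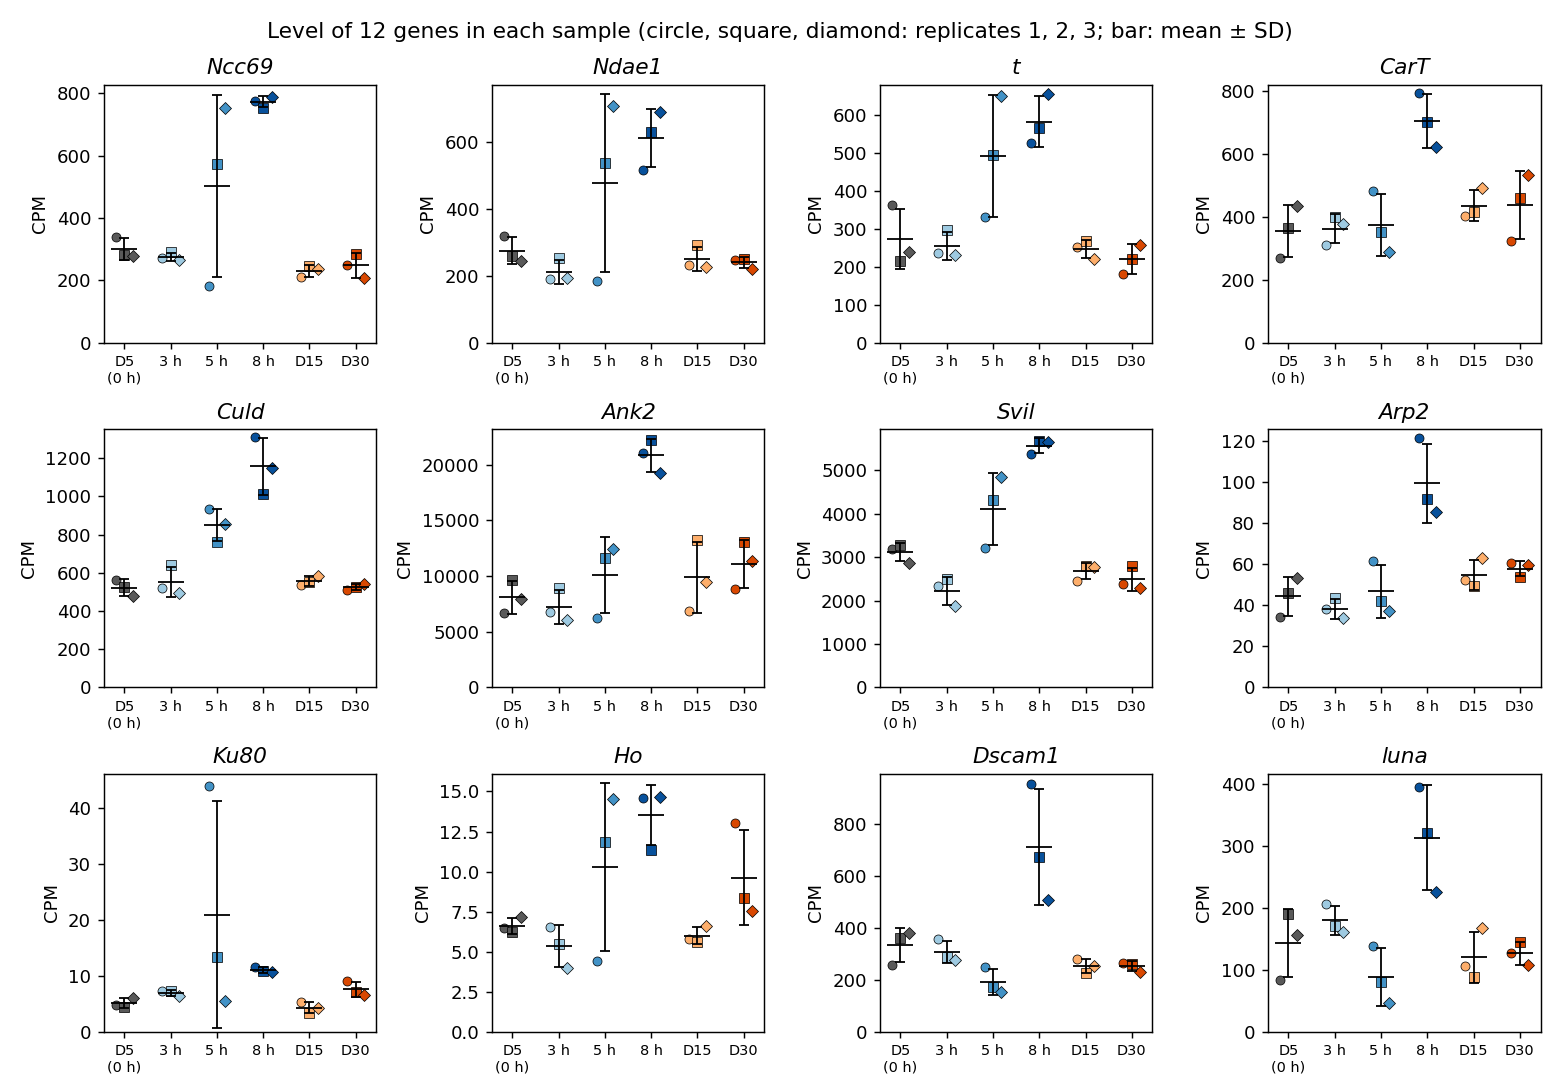
CPM of 12 genes in each sample, with the mean and SD of the 3 replicates as bars and replicates 1, 2 and 3 as circle, square and diamond. Ncc69 and Ndae1 have replicate 1 low and replicates 2 and 3 high at 5 h, Ku80 has the reverse, Culd has 5 h between D5 and 8 h, and Dscam1 and luna have their lowest mean at 5 h and their highest at 8 h.

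Genes of the actin and membrane skeleton made up a further group. Ank2, an ankyrin that ties membrane proteins to spectrin in neurons, took the largest share of the counts of the 82 genes, 51.1% to 53.8% of their summed CPM at 8 h and 40.9% to 49.3% at D5. Its levels were 21057, 22199 and 19237 CPM at 8 h, against 6636, 9619 and 7936 CPM at D5. At 5 h Ank2 had 6180.3, 11638 and 12379 CPM and at D15 6833, 13259.7 and 9486 CPM, which overlap throughout, and its fitted change was near 0 (SE 0.23) with an edgeR adjusted p of 0.998 (0.294 to 0.997 over 17 alternatives).

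Svil, a supervillin of the gelsolin family that binds F-actin, had 3208, 4310.0 and 4838 CPM at 5 h and 2459, 2790.2 and 2768 CPM at D15. Its samples did not overlap, and it was higher at 5 h by a log2 fold change of 0.62 (SE 0.14), edgeR adjusted p = 0.00563 (0.000319 to 0.135 over 17 alternatives). After 3 h of light Svil had 2325, 2489.8 and 1868 CPM, below all D5 samples (3199, 3271 and 2876 CPM), and after 8 h 5370.2, 5688 and 5662 CPM. Svil was thus among the genes with a lower level early and a higher level late in the exposure.

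Among subunits and regulators of branched actin, 3 met the rule, none with a call at 5 h over D15. Arp2, a core subunit of the Arp2/3 complex, had 121, 91.7 and 85.4 CPM at 8 h and 34.1, 45.9 and 53.2 CPM at D5, and its 5 h samples (61.6, 41.9 and 37.03 CPM) overlapped those of D15 (52.4, 49.3 and 63.2 CPM). Capping protein beta (cpb), which closes the growing end of filaments, had 27.9, 23.96 and 24.1 CPM at 8 h and 15.7, 9.94 and 14.4 CPM at D5. GMF, which removes Arp2/3 branches, had 13.1, 12.9 and 12.3 CPM at 8 h and 4.66, 7.01 and 5.49 CPM at D5. Of 48 tested genes on the list of actin assembly, 7 were higher and 6 lower at 5 h than at D15 (12.8% and 11.8% of all tested features), with a median log2 fold change of -0.01, near the 0.01 of all tested features. Arpc5, capt, cib and IRSp53 were among those higher, and Arpc2 and WASp among those lower.

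Src64B, a Src-family tyrosine kinase, had 93.03, 76.5 and 58.97 CPM at 8 h and 31.03, 48.9 and 42.96 CPM at D5. Syn2, a syntrophin that belongs to the dystrophin complex, had one of the widest differences at 8 h (108, 75.3 and 65.6 CPM, against 25.1, 26.96 and 29.8 CPM at D5). At 5 h Syn2 had 24.6, 35.6 and 40.98 CPM, against 25.4, 24.03 and 25.6 CPM at D15. Its call (0.44 (SE 0.15), edgeR adjusted p = 0.0438, 0.0248 to 0.352 over 17 alternatives) was lost in 5 of the 6 fits that left out 1 sample, all but the one without 5h replicate 1.

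Ku80 (FBgn0041627), which binds broken DNA ends in non-homologous end joining, had 43.9, 13.3 and 5.53 CPM at 5 h, against 5.41, 3.34 and 4.23 CPM at D15. The 3 samples at 5 h were all above D15 but spread widely, with replicate 1 the highest, the reverse of Ncc69. Its fitted log2 fold change was 1.43 (SE 0.22), edgeR adjusted p = 0.000783 (1.08e-07 to 0.0192 over 16 alternatives), and 1.11 without 5h replicate 1. At 8 h the spread was small, 11.6, 10.9 and 10.7 CPM, against 4.84, 4.49 and 6.07 CPM at D5. Irbp (Ku70), the partner of Ku80, and DNAlig4, the ligase of the same pathway, were also called higher at 5 h but did not meet the rule.

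The nuclease mei-9, the fly XPF of nucleotide excision repair, had 28.96, 21.6 and 20.3 CPM at 8 h and 15.3, 11.02 and 11.8 CPM at D5, and its 5 h samples (15.4, 12.8 and 12.2 CPM) overlapped D15 (12.02, 13.8 and 14.2 CPM). PolZ2, a subunit of the translesion polymerase zeta, had 6.04, 6.16 and 4.38 CPM at 8 h and 1.97, 2.82 and 2.53 CPM at D5, and PolG1, the mitochondrial DNA polymerase, had 12.7, 14.2 and 11.99 CPM at 8 h and 6.1, 7.31 and 7.34 CPM at D5. Among 45 tested genes on the DNA repair list, 9 were higher and 13 lower at 5 h than at D15 (12.8% and 11.8% of all tested features), with a median log2 fold change of -0.10.

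Some members act in haem, lipid and detoxification metabolism. Ho, the haem oxygenase, had 4.43, 11.9 and 14.5 CPM at 5 h and 5.81, 5.58 and 6.6 CPM at D15, with replicate 1 below D15. It was higher by a log2 fold change of 0.85 (SE 0.16), edgeR adjusted p = 0.00262 (0.000234 to 0.112 over 16 alternatives), and by 1.07 without 5h replicate 1. Drat, a protein with an alcohol dehydrogenase domain, had 24.8, 72.6 and 97.3 CPM at 5 h, against 37.3, 39.8 and 42.5 CPM at D15, and 141, 104 and 103 CPM at 8 h. At D5 Drat had 62.8, 58.6 and 60.96 CPM, above every D15 sample and inside the range at 5 h. Its fitted change was 0.74 (SE 0.14), adjusted p = 0.00265 in edgeR (9.74e-05 to 0.156 over 17 alternatives). The glycosyltransferase Ugt36D1 had 13.4, 15.4 and 16.2 CPM at 5 h, all above D15 (6.29, 9.83 and 9.1 CPM), and was higher by a log2 fold change of 0.83 (SE 0.19), edgeR adjusted p = 0.00633 (0.000646 to 0.0839 over 16 alternatives).

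CPT2, the inner mitochondrial carnitine palmitoyltransferase, and Sfxn2, a sideroflexin of the mitochondrial membrane, were called higher at 5 h by log2 fold changes of 0.39 and 0.67, but each call held in only 2 of the 6 fits that left out 1 sample: for CPT2 those without 5h replicate 1 and without D15 replicate 2, and for Sfxn2 those without 5h replicate 1 and without 5h replicate 3. Dredd, a caspase of the Imd immune pathway, had 45.4, 37.3 and 33.6 CPM at 8 h and 17.3 to 20.8 CPM at D5, and at 5 h 7.16, 22.6 and 29.8 CPM, on both sides of D15 (17.99, 20.6 and 19.2 CPM).

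Some members had their lowest mean of all groups at 5 h and their highest at 8 h. Dscam1, an immunoglobulin-domain adhesion receptor with many splice forms, had 249, 174 and 155 CPM at 5 h, against 282, 224 and 254 CPM at D15. It was lower at 5 h, with a log2 fold change of -0.52 (SE 0.16), edgeR adjusted p = 0.031 (0.0144 to 0.472 over 17 alternatives), a call that was lost without 5h replicate 2 or 3 (adjusted p = 0.085 and 0.128) and without D15 replicate 1 or 3 (0.0757 and 0.0709). At 8 h Dscam1 had 952, 672 and 508 CPM, against 257, 362 and 380.4 CPM at D5, so the lowest 8 h sample was above every other sample of the study. On the axon guidance list, 48 genes were tested and 1 was higher and 7 lower at 5 h than at D15 (12.8% and 11.8% of all tested features), with a median log2 fold change of -0.03.

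Luna, a Krüppel-like transcription factor, had 139, 79.8 and 45.98 CPM at 5 h and 106, 89.02 and 167 CPM at D15. Replicates 2 and 3 at 5 h were below every D15 sample and replicate 1 was not. Its fitted change was -0.82 (SE 0.25), edgeR adjusted p = 0.0288 (0.00743 to 0.478 over 17 alternatives), and it was lost without 5h replicate 3 (-0.54, adjusted p = 0.283) and without D15 replicate 3 (-0.50, adjusted p = 0.154). The call was also lost without the RUVs factors (-0.43, edgeR adjusted p = 0.478). Luna had 395, 321 and 226 CPM at 8 h and 83.7, 191 and 157 CPM at D5. The adenylyl cyclase Ac78C had 9.4, 15.3 and 16.4 CPM at 5 h, 61.2, 49.97 and 36.8 CPM at 8 h and 25.8, 20.2 and 24.2 CPM at D5, and its change over D15 did not pass.

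Emc, a helix-loop-helix protein that blocks DNA binding of its partners and the one member on the Notch list, had 164, 155 and 196 CPM at 8 h and 97.8, 88.1 and 98.6 CPM at D5. At 5 h emc had 199.6, 100.3 and 108 CPM, above D15 (92.1, 97.2 and 85.9 CPM) in every sample, with an edgeR adjusted p of 0.1 (0.025 to 0.633 over 17 alternatives). The activin ligand Actbeta had 118, 121 and 102 CPM at 5 h and 79.97, 93.2 and 84.1 CPM at D15, likewise without overlap and with an adjusted p of 0.0801 (0.021 to 0.783 over 17 alternatives). Both genes thus had groups that did not overlap but missed the adjusted threshold.

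Members that act in membrane traffic, picked by their known role, included Mvb12, RabGGTa, Syx13 and stac. Mvb12, a subunit of the ESCRT-I complex that sorts receptors into endosomes, had 18.4, 21.6 and 15.01 CPM at 5 h, all below D15 (23.2, 26.4 and 30.1 CPM). It was lower, with a log2 fold change of -0.63 (SE 0.20), edgeR adjusted p = 0.0329 (0.0107 to 0.291 over 17 alternatives), but the call held only without 5h replicate 2 and without D15 replicate 1 among the 6 fits that left out a sample. Syx13, an endosomal SNARE, had 41.8, 40.3 and 39.1 CPM at 8 h and 22.2, 20.5 and 24.5 CPM at D5. Stac (staccato), a Munc13-4-like protein of vesicle fusion, had 205, 176 and 137 CPM at 8 h and 51.2, 81.6 and 79.7 CPM at D5, and 157, 67.9 and 40.2 CPM at 5 h, where replicate 1 was the highest and replicate 3 the lowest. RabGGTa, a subunit of the enzyme that adds lipid to Rab GTPases, was called higher by a log2 fold change of 0.42 with an edgeR adjusted p of 0.0495 and passed in none of 16 alternatives (0.0545 to 0.302 over 16 alternatives).

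Of the 82 members, 74 were annotated as protein coding, 6 as noncoding RNA and 1 as a small nucleolar RNA, and 1 identifier (FBgn0086058) had no annotation. Among the noncoding members, lncRNA:CR45803 had the largest difference of L at 8 h (1.69), with 19.5, 10.9 and 9.82 CPM at 8 h and 2.03, 4.55 and 3.85 CPM at D5. The antisense RNA asRNA:CR43959 had 13.9, 39.4 and 29.9 CPM at 5 h, all above D15 (10.2, 8.07 and 10.5 CPM), and was higher by a log2 fold change of 1.56 (SE 0.30), edgeR adjusted p = 0.00262 (7.31e-06 to 0.0199 over 16 alternatives). It lies opposite Hk, a potassium channel subunit with 1892 CPM at 8 h and 1394 CPM at D5, and as the strand setting of the counting is not given in the sources used here, reads of asRNA:CR43959 and Hk cannot be told apart.

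LncRNA:CR46064 had 6.19, 10.1 and 11.4 CPM at 5 h, all below D15 (15.2, 12.1 and 18.6 CPM), and 26.2, 20.1 and 20.3 CPM at 8 h. It was lower at 5 h, with a log2 fold change of -0.68 (SE 0.17), edgeR adjusted p = 0.0105 (0.00206 to 0.083 over 16 alternatives), lost without 5h replicate 1 (adjusted p = 0.0506). The small nucleolar RNA snoRNA:Me28S-A1322, which lies within eEF1alpha1 on its strand, was higher at 5 h (20.1, 19.4 and 25.3 CPM) than at D15 (13.96, 12.7 and 10.4 CPM) in every sample, a call lost without 5h replicate 1, 5h replicate 3 or D15 replicate 3 (adjusted p = 0.0507, 0.147 and 0.0818, 0.00805 to 0.263 over 16 alternatives). Its host eEF1alpha1 had means of 653 CPM at 8 h and 899 CPM at D5. Among noncoding members, the 8 h difference of asRNA:CR45999 was next to that of lncRNA:CR45803. It had 8.8, 5.52 and 3.58 CPM at 8 h and 2.27, 1.5 and 2.06 CPM at D5, and it lies opposite CG9855, which had means of 19.9 CPM at 8 h and 17.8 CPM at D5. Of the 82 members, 44 (53.7%, against 45.8% of kept features) overlap a gene on the other strand. Without the strand setting, it cannot be said whether reads of the partner were counted to them.

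Members to which no role was assigned here carried some of the widest differences. CG12541 had 10.1, 51.2 and 72.1 CPM at 5 h, against 14.04, 18.8 and 11.02 CPM at D15, and 27.7, 40.9 and 48.7 CPM at 8 h, so replicates 2 and 3 at 5 h were above every 8 h sample. It was higher by a log2 fold change of 1.49 (SE 0.27), edgeR adjusted p = 0.00206 (2.79e-06 to 0.108 over 17 alternatives). CG8419 had 58.7, 70.1 and 126 CPM at 5 h and 39.3, 59.7 and 49.3 CPM at D15, and its call (0.77 (SE 0.20), edgeR adjusted p = 0.0126, 0.00237 to 0.35 over 17 alternatives) was lost without 5h replicate 3 (0.40, adjusted p = 0.273). CG7029 had 2078, 1823 and 1383 CPM at 8 h and 574, 1008 and 949 CPM at D5, and 920.5, 551 and 446 CPM at 5 h, in the opposite order of replicates to Ncc69. CG17328 was called higher by a log2 fold change of 0.75, a call that, among the 6 fits that left out a sample, held only without 5h replicate 2 and without D15 replicate 3. The calls not yet named were higher at 5 h. CG15894, by a log2 fold change of 0.57, passed in all 6 fits that left out a sample. CG34134 (0.70) and Snx21 (0.46) each passed in 1 of them, and CG4168 (0.62) in 2. CG15894 had 56.5, 49.8 and 46.8 CPM at D15, all below D5 (60.5, 77.6 and 71.04 CPM), and 104.9, 71.9 and 66.997 CPM at 5 h.

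Several members share a place in the genome, so they are not independent of each other. CG43800 (chromosome 2L, 7232165 to 7232813, minus strand in dm6) lies within Ndae1 (7223328 to 7249343) on the same strand. It had 2.06, 14.7 and 19.1 CPM at 5 h, against 5.49, 6.01 and 4.68 CPM at D15, with the same order of replicates as Ndae1, and reads of unspliced Ndae1 RNA and of CG43800 cannot be told apart where only CG43800 is annotated as exon. Its call (1.01 (SE 0.30), edgeR adjusted p = 0.023, 0.00625 to 0.424 over 16 alternatives) held only without 5h replicate 1 and without D15 replicate 2 among the fits that left out a sample.

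CG43788 and CG43789 lie within Pkc53E, the eye protein kinase C gene, on its strand. They had 34.3, 36.1 and 43.6 CPM and 31.1, 27.3 and 35.7 CPM at 8 h, against 21.9, 18.03 and 18.1 CPM and 21.8, 14.9 and 13.4 CPM at D5, while Pkc53E had means of 789 CPM at 8 h and 507 CPM at D5 and was not a member. CG15891 and CG15892 lie 173 bases apart on one strand of the X chromosome, and CG17328 and GMF overlap by 110 bases on opposite strands. Genes longer than 20 kb made up 17 of the 82 members (20.7%, against 10.4% of kept features), and 22 members (26.8%) lay on chromosome arm 2L, which holds 17.8% of kept features.

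No member was on any of the 7 lists of cell type markers. These lists held 6 to 15 tested genes each, and members were 0.87% of kept features, so few or none would be expected on them. Summed markers of glia were 443 to 557 CPM at 8 h, against 775 to 960 CPM at D5. Those of muscle were 2490 to 3149 CPM at 8 h, against 3724 to 6255 CPM at D5. Markers of R7 and R8 (527 to 762 CPM at 8 h, 849 to 1171 CPM at D5) were lower as well. So were those of other neurons (1090 to 1478 CPM at 8 h, 1601 to 2065 CPM at D5), cone and pigment cells, and haemocytes and fat body. Every list but that of R1–R6 was thus lower at 8 h without overlap. The part of this shift in the levels of the 82 genes was not tested. Summed R1–R6 markers overlapped (61518 to 64713 CPM at 8 h and 58952 to 70213 CPM at D5). Between 5 h and D15, glial markers were higher (697 to 877 CPM at 5 h, 465 to 546 CPM at D15) and R1–R6 markers lower (56773 to 67382 CPM at 5 h, 73134 to 78772 CPM at D15), and the part of this shift in the calls at 5 h was not tested. In nuclei pooled in bulk, fewer nuclei of a type and less RNA per nucleus cannot be told apart.

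Summed over all 82 genes, the level was 16032, 23856 and 26414 CPM at 5 h, against 15384, 22393 and 18681 CPM at D15, and the groups overlapped, with 5h replicate 1 below 2 of the 3 D15 samples. Without Ank2, the sum was 9852, 12218 and 14035 CPM at 5 h, against 8550, 9133 and 9195 CPM at D15. Without that gene, all 5 h samples were above all D15 samples, with replicate 1 the nearest. The sum without Ank2 at 8 h was 19931, 19065 and 18444 CPM, against 9608, 9888 and 9525 CPM at D5, which the selection fixed.

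**Figure D4:**
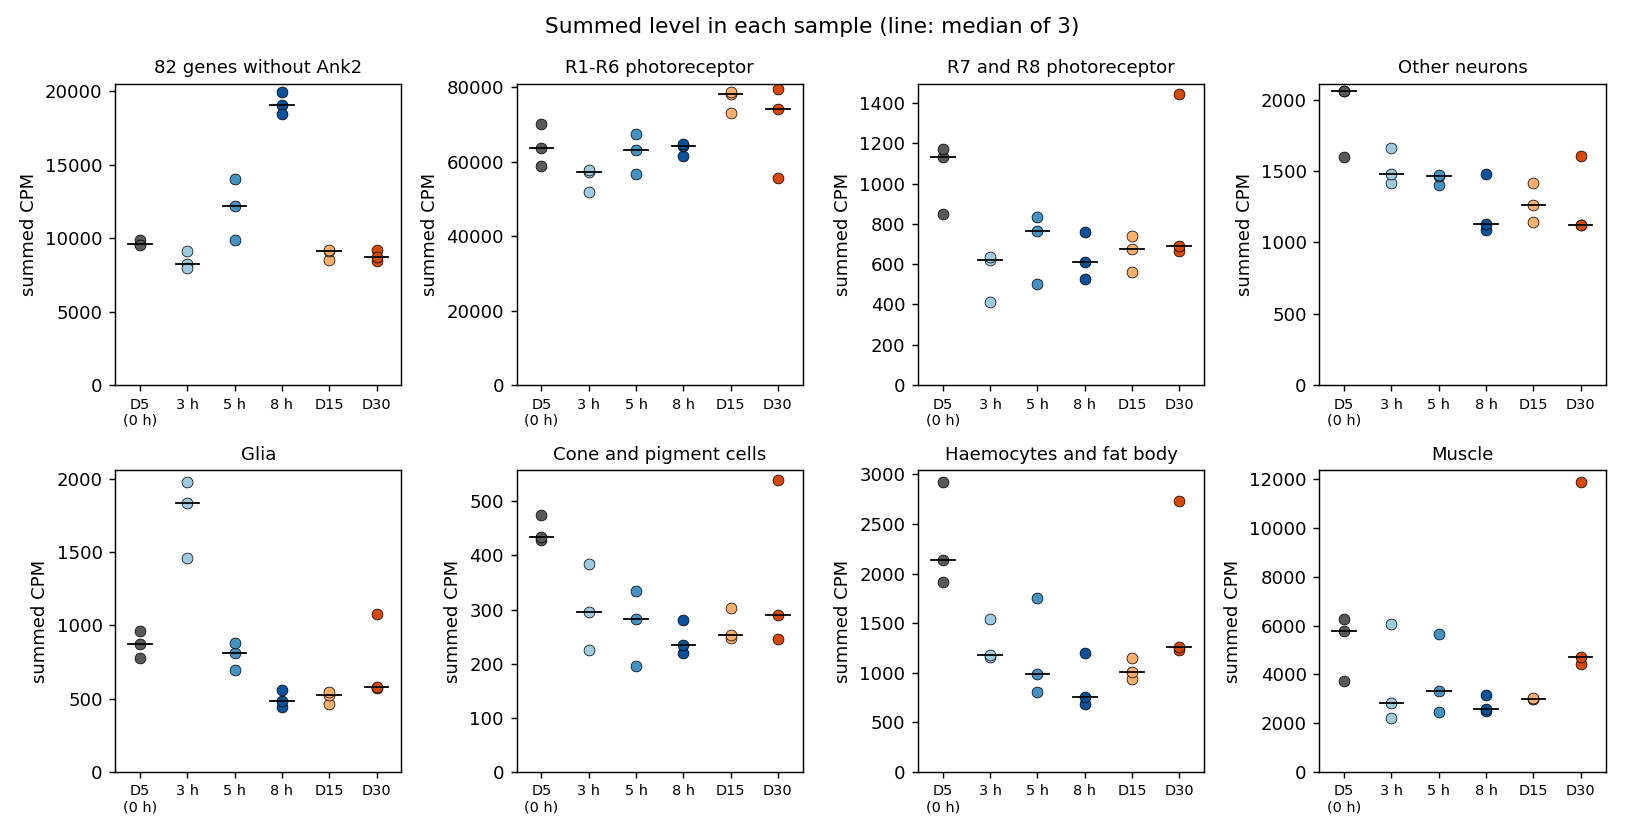
Summed CPM per sample of the 82 genes without Ank2 and of 7 lists of cell type markers, with a line at the median of 3 samples. The 82 genes stand at 18444 to 19931 CPM at 8 h and 9525 to 9888 CPM at D5. The markers of every list but R1–R6 are lower at 8 h than at D5.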

How the data were processed

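RNA from immunoprecipitated R1–R6 nuclei was sequenced after ribosomal RNA depletion as paired reads, with 3 samples in each of 6 groups. The authors trimmed reads with Trimmomatic, aligned them with HISAT2 to dm6 and counted genes with HTSeq (0.11.1 in the submitters' processing notes, another version in the study's methods), and the deposited values are raw counts without normalization. Names, positions and biotypes came from the Ensembl BDGP6.54 annotation and matched 17710 of 17811 features. The summary lines per sample (55.1% to 75.5% of read pairs, not assigned to a gene) stayed out of totals. Samples of a group are biological replicates per the study. In fits with RUVs factors, which absorb differences between replicates, p-values measure only the spread left between replicates after those factors. They do not measure the full spread of the replicates seen in the CPM. Without the factors, fewer members were called in either direction.

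Genes with over 10 counts in every sample were fitted over all 18 samples in edgeR 4.0.16 (TMM, R 4.3.3, limma 3.58.1) with 2 RUVs factors, rewritten from the published description since RUVSeq was not installed. The test was the quasi-likelihood F-test with Benjamini-Hochberg adjustment over 9427 features, called at an adjusted p under 0.05. The code was tested on simulated data. Alternatives were 0, 1 or 3 factors, DESeq2 1.42.0 size factors or Wald test, upper-quartile scaling, other filters, a fit of the 5 h and D15 samples alone, the replicate number as a block, and leaving out each replicate. The rule itself was repeated with other scaling, pseudocounts (1 in the main rule) and filters.

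The members, gene lists and tests were chosen with earlier results of these data known. Members were named by a rule: the 12 with the largest difference at 8 h, the 8 with the highest CPM at 8 h, the 12 largest calls at 5 h over D15, members on a list, 4 noncoding members and the nearest to each threshold. Of these, those that say most about a role were described. Other members, such as CarT, Drat, subdued, Dredd, Mvb12 and the remaining calls, were named for their known role or their call after their values were seen. Not every member that the naming rule picked is described, and 1 result is not reported here.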

Additional observations from a re-analysis of the deposited data

Results flagged for a closer look

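In 4 genes, every 5 h sample lay below every D5 sample while every 8 h sample lay above them, as the selection required. The L at 5 h minus that at D5 was -0.79 for Dscam1, -0.73 for Ac78C, -0.67 for CG3777 and -0.45 for subdued. Of all members, 14 had the opposite order at 5 h, with every 5 h sample above D5. Over all kept features, 19.4% had every 5 h sample below and 7.34% every 5 h sample above D5. The difference between the 5 h and 8 h changes was not tested, since the 8 h change chose the genes. With groups of 3 samples, no test for a single outlying sample was run.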

How the results depend on the processing

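Members higher and lower at 5 h than at D15 numbered 23 and 5 as reported (1202 and 1115 of all 9427 tested features). They were 9 and 2 without RUVs factors (566 and 264 of all tested features). With a filter of CPM over 1 in 3 samples they were 4 and 3 (398 and 387 of 12984), and without a filter 6 and 3 (639 and 292 of 17024). The share of members called lower was near that of all tested features without the factors, and above it with that filter or none. Upper-quartile scaling gave 14 and 9 (842 and 1592) and moved the median of all genes to -0.11. Lower members were 3 in a fit of the 5 h and D15 samples alone (749 of all tested features). Leaving out each replicate gave 13 to 22 higher and 2 to 6 lower (721 to 951 and 695 to 1051 of all tested features). Those fits held fewer samples, and the causes of the differences were not tested. The remaining alternatives gave counts within 1.5 times. The replicate numbers do not pair the samples (same-numbered deviations at 5 h and D15 correlated at -0.04, 0.22 and 0.05), and the replicate block gave 25 higher and 6 lower. Of 28 calls, 12 passed in all 6 fits without 1 sample, 5 in 3 to 5 of them and 11 in 2 or fewer. Ncc69, Ku80, subdued and asRNA:CR43959 passed in every alternative that tested them. Over 50 members and 17 alternatives, no called change turned its direction, 147 comparisons lost a call and 13 gained one. The rule itself gave 141 genes with TMM-scaled CPM (70 shared), 39 with CPM over 10 in every sample, 80 and 74 with pseudocounts of 0.5 and 2, and 72 to 94 without 1 sample of D5 or 8 h, of which 54 to 78 were among the 82. Low genes such as Ku80 rest on few counts.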
